A study of Oryza sativa with 32 samples.

Results

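The 100 transcripts described here are the members of the rice panicle transcriptome whose level was highest at 21 h after dawn, late in the night, and that had the widest range over the day. They were taken from 37829 gene identifiers by their levels in CPM (a gene's count scaled by the total count of its library). Of these identifiers, 14622 had a mean of at least 10 CPM over 32 libraries, and 940 of them had the highest of their 8 time means at 21 h. For 624 of the 940, the lowest of the 4 libraries at 21 h lay above the highest of the 4 libraries at the gene's own lowest time. With OS10G0565200 and OS12G0641400 left out, 622 remained. They were ranked by log2 of the highest mean plus 1 CPM over the lowest mean plus 1 CPM, called the range below, and the first 100 are the members. The level at 21 h and at the lowest time therefore chose the genes, so these levels are given as a description and were not tested.

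Panicles (the flowering heads) of the indica rice Oryza sativa IR64, grown untreated in a field in the Philippines, were taken at 50% flowering. Each of the 8 harvest times is represented by 4 libraries of poly(A) RNA: dawn, 3.5 h, 7 h, 10.5 h, dusk, 14 h, 17.5 h and 21 h, all hours counted from dawn. Dusk has no hour in the labels, and nothing in them tells whether a time's 4 libraries stem from different plants or plots, so p-values measure the spread between these libraries, which may be technical. All 8 groups share the cultivar, field, season, stage and lack of treatment, and by the labels they differ in the time of harvest alone. The panicle holds many cell types, and fewer cells of a type cannot be told apart from less RNA per cell.

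Plants keep time with a circadian clock, a set of genes that repress and activate each other in turn over the day. Its outputs include transcripts that build up before dawn, when sugars stored as starch run low and the morning clock genes, such as the MYB factor LHY, are coming on. In a rice panicle at flowering, florets open in the daytime, anthers shed pollen and the first grains are set. The deposited tables give identifiers with no names. The reference table used here pairs none of the 100 identifiers with a symbol, so members are given by identifier, without a role, and symbols stand for checked genes outside the module. No sequence of a member was at hand, and none is shown.

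Libraries held 10.8 to 43.9 M counts (M for mega), with a median of 16.8 M. Genes written down as floral organ identity genes summed to 2175 to 3457 CPM in every library, as in panicle tissue. A list of 2 genes written down for endosperm, with 1 pair checked, summed to 4.48 to 12.9 CPM. Libraries were compared with the other 3 of their time by the correlation of log2 CPM over the genes of at least 10 CPM. The 3 with the lowest mean correlation are taken here as standing apart: dawn replicate 4 (0.69), 21 h replicate 3 (0.76) and 10.5 h replicate 3 (0.78). Dusk replicate 1 was next, at 0.80, so the line between them is narrow. The 3 also had the lowest summed levels of 3 genes written down as mature pollen genes, with 1.39, 1.90 and 1.39 CPM in that order, against 2.36 to 83.6 CPM in the other 29. Results that rest on these libraries are given with and without them.

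The members' mean levels at 21 h, which are not scaled by gene length, ran from 17.7 to 1764 CPM, with a median of 89.0 CPM. Ranges ran from 6.50 on the log2 scale in the member of highest rank to 1.80 in the last, with a median of 2.49. Of the 100, 15 had a range of at least 4, 29 of at least 3 and 81 of at least 2. The ranking has no gap at its end. The last 3 members, OS11G0114600, OS05G0405000 and OS04G0430200, had ranges of 1.82, 1.82 and 1.80, and the next 3 genes, OS03G0337500, OS04G0495800 and OS06G0680500, had 1.79, 1.79 and 1.78. In all, 522 genes met the other conditions at a lower rank. The condition that 21 h clears the gene's lowest time without overlap was met by 19.4% of the 14622 genes, whatever their highest time.

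The members were near their 21 h level at dawn, lower through the day and at their lowest around dusk. In percent of a member's own 21 h mean, the median over the 100 was 84.4% at dawn, 52.5% at 3.5 h and 27.8% at 7 h. It was lowest at 10.5 h and dusk, with 20.0% and 19.9%, and stood at 23.5% at 14 h and 43.7% at 17.5 h. All 100 members stood at or above 50% of their 21 h mean at dawn, 57 did at 3.5 h, 18 at 7 h, 2 at 10.5 h, 5 at dusk, 12 at 14 h and 40 at 17.5 h. The lowest mean fell at dusk in 38 members, at 10.5 h in 23, at 7 h in 18, at 14 h in 17, at 3.5 h in 2 and at 17.5 h in 2. None was lowest at dawn.

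**Figure D1:**
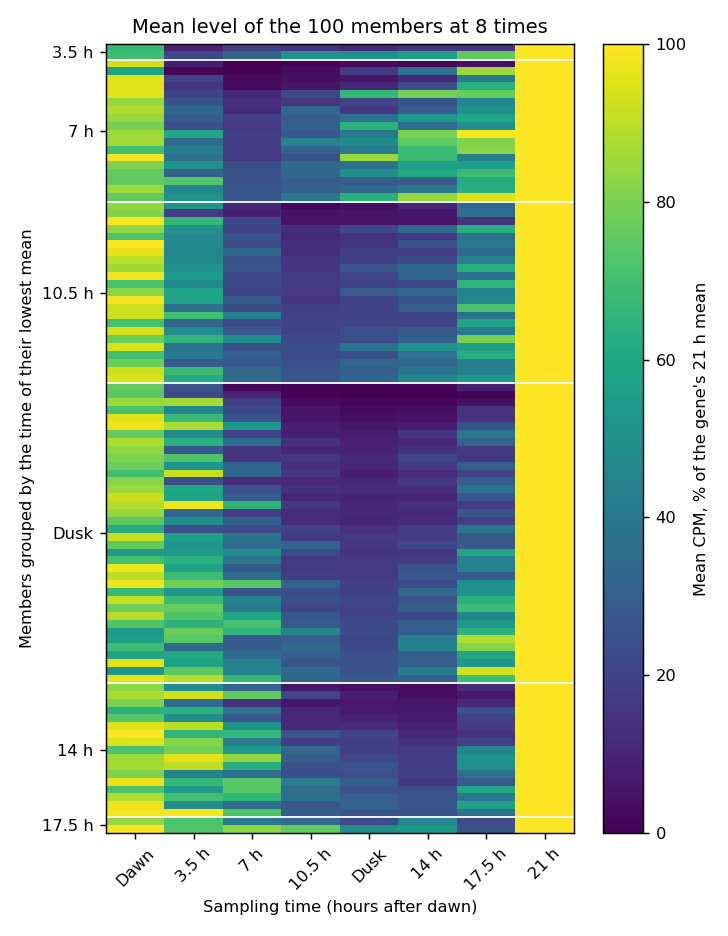
Mean CPM of each of the 100 members (1 line each, vertical axis, grouped by the time of the lowest mean) at the 8 sampling times (horizontal axis), coloured in percent of the gene's 21 h mean. Dawn stayed bright, with a median of 84.4%, and dusk was dark, with a median of 19.9%.

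The steepest part of the return came late. The largest step up between neighbouring time means, on the log2 scale, was from 17.5 to 21 h in 60 members and from 14 to 17.5 h in 29. The largest step down was less uniform, from 7 to 10.5 h in 38 members, from dawn to 3.5 h in 30 and from 3.5 to 7 h in 25. The median step from 17.5 to 21 h was 1.18, beside -0.17 over all genes of at least 10 CPM, and the rule fixed the sign of the former.

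Library by library, the median member stood at 109.7, 98.5, 83.7 and 98.8% of its 21 h mean in replicates 1 to 4 of 21 h. At dawn the values were 80.9, 90.7, 86.3 and 68.0%, and at 17.5 h 41.4, 46.7, 45.2 and 34.6%. Replicates 2 and 3 of dawn lay above 21 h replicate 3, so the libraries of 21 h and dawn overlap on this measure, and those of 17.5 h lie below both. Replicate 3 of 21 h held the lowest of the 4 values in 49 members and replicate 1 the highest in 43. At dawn, replicate 4 was lowest in 61 members and replicate 2 highest in 45. Both low libraries are among the 3 that stood apart. The summed level of 4 genes written down as light-harvesting and Rubisco activase genes, taken as markers of green tissue (1 of the 4 pairs was checked), moved over the day too. It was 5044 to 7034 CPM at 21 h, 4159 to 11629 CPM at dawn, 1104 to 1525 CPM at dusk and 1542 to 2128 CPM at 17.5 h. Such genes follow the time of day themselves, and their part in the members' levels was not tested.

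**Figure D2:**
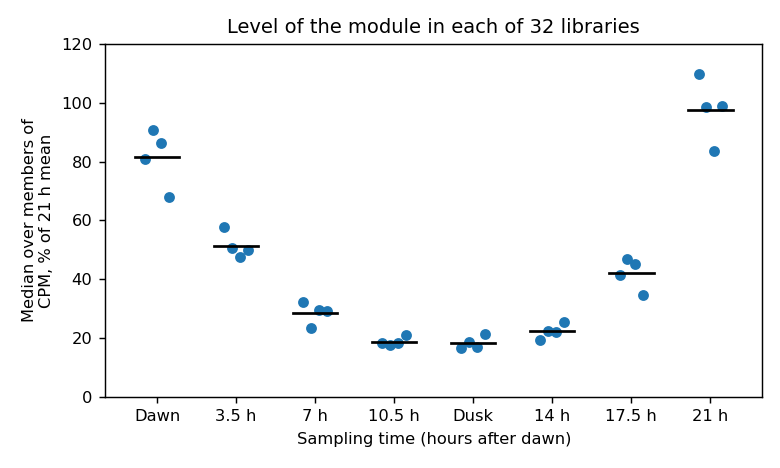
Median over the 100 members of the CPM in percent of the gene's 21 h mean (vertical axis) in each of 32 libraries (points), by sampling time (horizontal axis); the bars are means of 4 libraries. The 4 libraries at 21 h sit between 83.7 and 109.7%, and those at dusk between 16.7 and 21.2%.

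The member of highest rank, OS10G0330400, had 450.4, 372, 228 and 255 CPM in replicates 1 to 4 of 21 h and 3.07, 2.81, 1.92 and 2.64 CPM at dusk, its lowest time. The means were 326 ± 104 and 2.61 ± 0.496 CPM (SD, n = 4 each), a 125-fold ratio. Part of its return came earlier in the night, with 6.25 ± 2.11 CPM (14 h) and 29.8 ± 11.8 CPM (17.5 h), and dawn, at 248 ± 55.0 CPM, overlapped with 21 h.

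OS01G0700100 was close to absent from 10.5 h until late in the night. It had 0.232, 0.346, 0.431 and 0.209 CPM at dusk, from 3 to 9 counts a library, and 1.21, 1.06, 1.01 and 0.682 CPM at 17.5 h. The 4 libraries at 21 h had 137, 89.2, 115 and 90.7 CPM and those at dawn 65.6, 105, 70.8 and 78.2 CPM. The 21 h mean of 108 ± 22.7 CPM was 355 times the dusk mean of 0.304 ± 0.103 CPM, a ratio that carries the counting error of the few dusk counts. From a dawn mean of 79.8 ± 17.4 CPM it passed through 24.0 ± 7.47 CPM (3.5 h) and 11.3 ± 2.58 CPM (7 h), down to 0.644 ± 0.266 CPM (10.5 h).

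OS01G0264000 and OS04G0583900 both had their lowest mean at 7 h and differed in how they came back. OS01G0264000 had a mean of 1.23 ± 0.416 CPM at 7 h, its libraries had 8.24, 11.3, 8.44 and 3.04 CPM at 17.5 h, and they reached 189, 159, 133 and 230.3 CPM at 21 h, so nearly all of its return fell in the last step before 21 h. Its dawn mean of 165 ± 49.9 CPM had shrunk to 13.3 ± 1.40 CPM by 3.5 h. OS04G0583900 had 1.49, 1.00, 0.451 and 0.524 CPM at 7 h and a higher mean at each later time, with 21.1, 19.1, 24.7 and 17.4 CPM at dusk and 98.2, 129, 120.1 and 79.1 CPM at 17.5 h. Its libraries at 21 h, with 147, 93.1, 91.5 and 169 CPM, overlapped with those of 17.5 h and of dawn (98.5, 58.7, 73.9 and 57.9 CPM). At 3.5 h its mean was 1.97 ± 1.01 CPM.

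OS12G0189300 stayed high into the morning. It had 334, 284, 234 and 185 CPM at 21 h, 188, 299, 258 and 135 CPM at dawn and 305, 224, 223 and 146 CPM at 3.5 h, all overlapping, and 2.38, 4.37, 3.45 and 2.71 CPM at dusk. At 17.5 h replicate 1 had 26.1 CPM and the other 3 had 5.91 to 8.06 CPM. OS09G0553900 began its return earlier, from 4.18, 4.76, 3.93 and 5.28 CPM at 10.5 h, its lowest time, through 23.7 ± 4.79 CPM (14 h) and 71.1 ± 17.0 CPM (17.5 h) up to 215 ± 44.7 CPM at 21 h, where the libraries had 272, 228, 171 and 190.2 CPM.

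**Figure D3:**
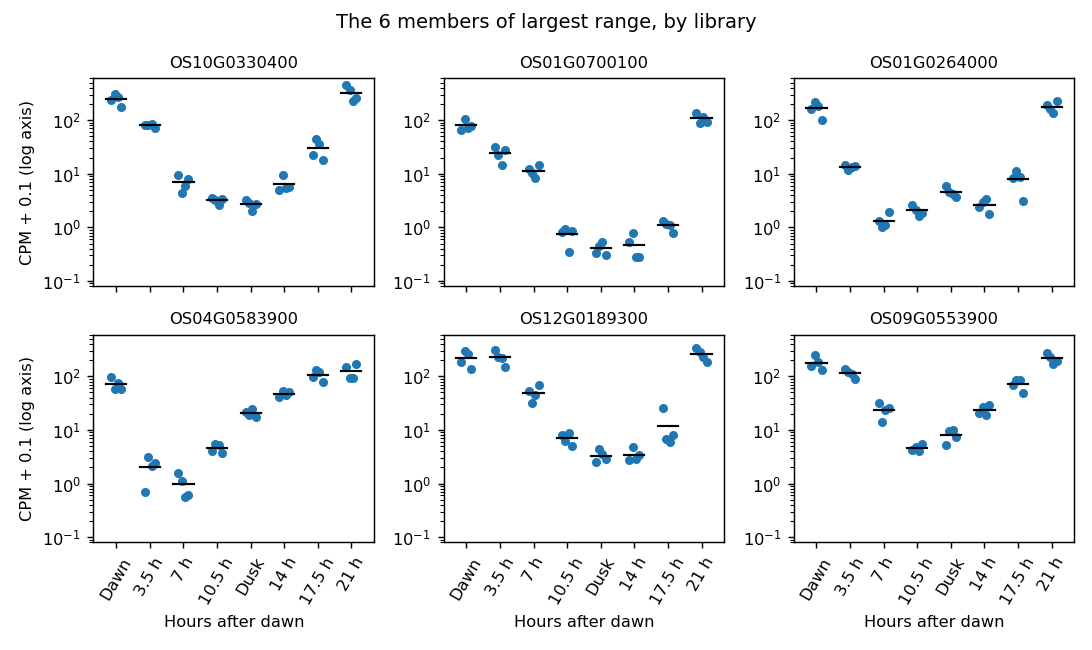
CPM plus 0.1 on a log axis (vertical) for the 6 members of largest range in each of 32 libraries (points), by sampling time (horizontal axis); the bars are means of 4 libraries. All 6 are high at 21 h and dawn, and OS04G0583900 alone of the 6 is near its 21 h level at 17.5 h (85.2%, against 0.917% to 33.0% in the other 5).

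Of the next 6 members by rank, OS01G0228400 had 7.07 ± 1.27 CPM at 7 h against 217 ± 51.4 CPM at 21 h, and OS02G0815700 had 2.12 ± 0.686 against 70.0 ± 14.2 CPM between the same times. OS01G0850900 and OS04G0444800 were lowest at dusk, with 2.71 ± 1.23 and 29.9 ± 12.8 CPM against 90.6 ± 17.9 and 742 ± 105 CPM at 21 h. OS04G0444800 stood within its spread of 21 h at dawn, with 709.8 ± 124 CPM. OS12G0226700, lowest at 14 h, went from 1.76 ± 0.668 to 52.9 ± 10.0 CPM. OS08G0489300 varied widely within times. Its mean at 10.5 h was 8.60 ± 6.17 CPM, and its dawn libraries had 146, 79.9, 91.3 and 272 CPM.

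The time of the lowest mean sorted the members into shapes, which the ranking did not use beyond the value itself. A group is low near its own lowest time by this sorting, so the levels below are a description of the groups. The 38 members lowest at dusk and the 17 lowest at 14 h were slow to reach it, with medians of 60.2% and 66.5% of the 21 h mean at 3.5 h and 32.8% and 53.8% at 7 h. The 18 members lowest at 7 h were low early, at 31.9% at 3.5 h and 17.5% at 7 h, and were back at 46.6% at 14 h and 62.0% at 17.5 h. At 17.5 h the medians of the groups lowest at dusk and at 14 h were 34.5% and 28.2%. The 23 members lowest at 10.5 h lay between, at 49.0% at 3.5 h and 44.6% at 17.5 h. Of the 12 members at or above 50% at 14 h, 9 were lowest at 7 h. The 2 members lowest at 3.5 h, OS02G0685200 and OS11G0678000, named for their lowest time, stood at 9.24% and 21.7% then. The 2 lowest at 17.5 h, OS03G0109800 and OS02G0678200, also named for it, stood at 22.8% and 24.6% then, beside 23.2% and 49.6% at dusk and 45.9% and 52.8% at 14 h.

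The times on either side of 21 h, with the day read as a cycle, were compared next. No label gives a time after 21 h, so dawn, from which hours are counted, stands in as the later neighbour. The rule put both dawn and 17.5 h below 21 h and did not set their order directly. Most members had their lowest mean at 10.5 h, dusk or 14 h (23, 38 and 17), and fewer at 7 h or 3.5 h (18 and 2). The former times come shortly before 17.5 h in the return to 21 h. A higher level at dawn may thus be favoured by the choice, and all genes are not a like set. At dawn, 65 of the 98 members read were higher than at 17.5 h in edgeR's quasi-likelihood test (Benjamini-Hochberg adjusted p below 0.05 over 25766 genes), where 8.41% of all genes tested were higher and 6.75% lower. The background moved with single libraries, to 13% higher and 11.9% lower without dawn replicate 4, to 4.94% and 4.17% without dawn replicate 2 and to 5.22% and 4.36% without 17.5 h replicate 1, and 70, 57 and 56 members were then higher. Without replicate 3 of dawn or of 17.5 h, 4.1% and 4.49% of all genes were lower. No member was lower, and 0 were lower at an unadjusted p below 0.05. DESeq2 and limma-trend called none lower, beside 8.83 and 11.3% of all genes. Scaled by the library total alone, the median of all genes shifted to -0.18, 1222 genes were higher and 2266 lower in place of 2168 and 1738, and 57 members were higher and 0 lower. The 2 members lowest at 17.5 h were not read, since the rule used that time. The median difference was 1.17 on the log2 scale, with quartiles of 0.63 and 1.89, beside -0.02 over all genes. OS01G0700100 had the largest difference, 6.51 ± 0.375 (SE), with an adjusted p of 4.15e-12. OS01G0264000 and OS12G0189300 followed with 4.63 ± 0.372 (SE) and 4.45 ± 0.436 (SE), at adjusted p of 1.18e-09 and 3.56e-08. The difference of OS12G0189300 was 5.22 without 17.5 h replicate 1, its high library at that time. In all 3 the 4 dawn libraries lay above the 4 libraries of 17.5 h. Members lowest at 14 h passed in 14 of 17 cases and those lowest at dusk in 28 of 38. Of those lowest at 7 h, 6 of 18 passed. The sorting by lowest time favours such a difference between shares, which was not tested.

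**Figure D4:**
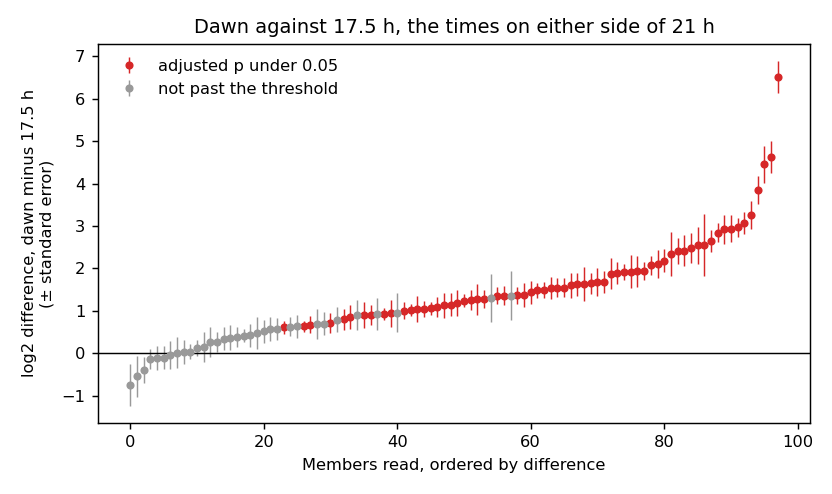
Log2 difference between dawn and 17.5 h with its standard error (vertical axis) for the 98 members read, ordered by the difference (horizontal axis); red points passed the test and grey points did not. The differences run from -0.74 to 6.51, and 65 of 98 passed.

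In 12 members the mean at 17.5 h lay above that at dawn, and none of these passed the test. They were picked out after their values were seen. OS03G0103950 had the most negative difference, -0.74 ± 0.486 (SE), with an adjusted p of 0.321, and stood at 93.1% of its 21 h mean at 17.5 h and 52.2% at dawn. OS01G0866400 and OS11G0114600 stood at 98.6% and 94.6% at 17.5 h, so that their place at 21 h rests on a small margin over the time before.

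Part of the members had higher levels at 17.5 h than at 14 h. All members were chosen to peak at 21 h, and those read were lowest at neither time. Such a choice favours a rise towards 21 h, so the share of all genes is background and not a like set. At 17.5 h, 32 of 81 members read were higher than at 14 h and none was lower, against 0.862% of all genes higher and 0.512% lower, by the same test. At an unadjusted p below 0.05, 0 were lower. DESeq2 and limma-trend called none lower, beside 2.47 and 0.411% of all genes. Marker sums also moved between these times, from 6.04 to 61.7 CPM at 14 h to 2.36 to 18.4 CPM at 17.5 h for the pollen list, from 112 to 489 CPM to 342 to 549 CPM for the cell division list and from 649 to 1071 CPM to 1542 to 2128 CPM for the green tissue genes, and their part was not tested. The median difference was 0.81, beside 0.00 over all genes. The largest were 2.56 ± 0.595 (SE) in OS08G0489300 (adjusted p = 0.0252), 2.19 ± 0.325 (SE) in OS10G0330400 (adjusted p = 0.000387) and 2.00 ± 0.319 (SE) in OS01G0850900 (adjusted p = 0.000952). OS08G0489300 had 2.28, 6.71, 11.6 and 22.5 CPM at 14 h and 63.5, 40.0, 66.1 and 90.6 CPM at 17.5 h, without overlap, and lost its call without replicate 1, 2 or 3 of 14 h or replicate 1 or 3 of 17.5 h, with adjusted p up to 0.125. Single libraries moved the counts of members and of all genes together. Without replicates 1, 2 and 3 of 14 h in turn, 22, 21 and 21 members were higher, beside 0.263, 0.493 and 0.446% of all genes. Without replicates 1, 2 and 3 of 17.5 h in turn, 25, 23 and 19 members were higher, beside 0.408, 0.4 and 0.316% of all genes. The share of all genes that was lower went down to 0.118% without 14 h replicate 1 and to 0.187, 0.175 and 0.206% without these 3 libraries of 17.5 h.

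Across the start of the night few of the members read passed the test. Those read were lowest at neither time and were chosen to peak at 21 h. A rise is thus favoured by the choice here too, and all genes are not a like set. Between dusk and 14 h, 3 of 45 members read rose and none fell, where 0.0349% of all genes rose and 0.59% fell. DESeq2 and limma-trend called none that fell, beside 1.05 and 0.726% of all genes. At an unadjusted p below 0.05, 2 fell and 20 rose. The share of all genes at that threshold was not computed in any contrast, so such counts are not read as a result. The median difference was 0.40, beside -0.03 over all genes. OS09G0553900 rose by 1.61 ± 0.273 (SE), from 5.16, 9.59, 9.77 and 7.37 CPM to 20.4, 26.2, 19.0 and 29.2 CPM (adjusted p = 0.00153). OS02G0815700 and OS01G0228400 rose by 1.19 ± 0.254 (SE) and 1.18 ± 0.269 (SE), at adjusted p of 0.0201 and 0.0327. OS02G0815700 lost its call without replicate 1, 2 or 3 of dusk or replicate 2 or 3 of 14 h, with adjusted p up to 0.0896, and OS01G0228400 without replicate 2, 3 or 4 of dusk or replicate 2 or 3 of 14 h, with adjusted p up to 0.187. The count was 1 without replicate 2 or 3 of dusk or of 14 h, where 0.0115 to 0.019% of all genes rose, and 2 without dusk replicate 4, where 0.0229% did. It was 5 without dawn replicate 2 and 4 without dawn replicate 4, a time in neither group, and 0.0762% and 0.0916% of all genes then rose. The share of all genes that fell was 0.369% without dusk replicate 3 and 0.302% and 0.343% without replicates 2 and 3 of 14 h. The summed level of the green tissue genes went from 1104 to 1525 CPM at dusk down to 649 to 1071 CPM at 14 h, without overlap, and its part was not tested. Of the 3, OS09G0553900 was lowest at 10.5 h and the other 2 at 7 h.

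After dawn the decline was quick in a minority. The rule set the peak at 21 h, and the lowest times lay mostly after 3.5 h. A fall is thus favoured by the choice, and all genes are again not a like set. At 3.5 h, 33 of 98 members read were lower than at dawn and none was higher, against 6.04% of all genes lower and 5.47% higher, by the same test. Without dawn replicate 2, 29 members and 3.53% of all genes were lower. The share of all genes higher was 3.62% without dawn replicate 1 and 3.54% without 3.5 h replicate 3, with 30 and 28 members lower. At an unadjusted p below 0.05, 1 was higher. DESeq2 and limma-trend called none higher, beside 7.61 and 3.9% of all genes. Scaled by the library total alone, the median of all genes shifted to -0.14, 960 genes were higher and 2225 lower in place of 1409 and 1557, and 41 members were lower. The median difference was -0.52, beside -0.01 over all genes. The widest drop was in OS04G0583900, which fell by 5.08 ± 0.381 (SE) on the log2 scale (adjusted p = 9.19e-10), from 98.5, 58.7, 73.9 and 57.9 CPM to 0.583, 2.98, 2.00 and 2.31 CPM. OS01G0264000 fell by 3.56 ± 0.352 (SE) and OS02G0815700 fell by 2.53 ± 0.261 (SE), at adjusted p of 1.29e-07 and 2.48e-07. None of the 3 had libraries that overlap between dawn and 3.5 h. All 3 are lowest at 7 h, and of the 18 members lowest at 7 h, 11 passed. Of the 38 lowest at dusk 10 passed, and of the 17 lowest at 14 h 3. Here too the sorting by lowest time favours a difference between shares, which was not tested.

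Whether 21 h stood above its neighbours was read from the libraries alone, since the rule used 21 h. The lowest 21 h library lay above the highest at 17.5 h in 78 members, a condition that 5.88% of the 14622 genes met, and above the highest at dawn in 10 members, met by 0.595% of the genes. The latter count was 20 without 21 h replicate 3, 18 without dawn replicate 4 and 27 without the 3 libraries that stood apart. Fewer libraries overlap less readily, and 2.03, 3.59 and 5.15% of the 14622 genes met the condition in these cases. The rule used the 21 h level, so these counts are descriptions. With all libraries, dawn and 21 h overlapped in the other 90. The 10, picked out by this overlap, are OS12G0190000, OS04G0573000, OS02G0685200, OS10G0190500, OS04G0404800, OS08G0202400, OS10G0100700, OS07G0693800, OS11G0678000 and OS01G0135900. OS12G0190000 had 1860.0, 1626, 1905 and 1666 CPM at 21 h and 1091, 1119, 1131 and 1154 CPM at dawn. OS04G0573000 had 332, 344, 302 and 290.1 CPM and 275, 224, 249 and 214 CPM at these times. Both were well clear of 17.5 h, with 436 ± 71.3 and 128 ± 17.7 CPM. OS08G0202400, with 20.4, 21.5, 36.6 and 29.2 CPM at 21 h and 17.1, 6.89, 14.5 and 19.9 CPM at dawn, was at 15.9 ± 2.86 CPM at 17.5 h.

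The order of dawn and 21 h depended on single libraries. With 21 h replicate 3 left out, 95 of the 100 members still had their highest mean at 21 h, and with dawn replicate 4 left out 76 did and 24 were higher at dawn. Without all 3 libraries that stood apart, 86 did. The median dawn level was 82.1 to 86.9% of 21 h in these cases. The choice of members moved more. Applying the whole rule without 21 h replicate 3 gave a list of 100 that kept 40 of the members, and 1097 genes then met the conditions in place of 622. Applying it without the 3 libraries kept 41, from 932 genes. Of the members, 27 stayed in the list whichever of the 32 libraries was left out. Among the 12 of highest rank 8 did so, and OS01G0264000, OS01G0228400, OS04G0444800 and OS02G0815700 stayed in 30 of 32 cases.

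Libraries of 1 time differed in their pollen transcripts, so members were set against a pollen list within times. The list holds 3 genes written down as pollen MADS-box genes (OS08G0494100, OS06G0223300 and OS11G0658700), whose pairing with those names was not checked by the reference table. Its summed level ran from 1.39 to 83.6 CPM over the libraries, with 1.90 to 24.9 CPM at 21 h and 1.39 to 28.7 CPM at dawn. Only 1 of the 3 genes had a mean of at least 10 CPM, so the list's level in the lowest libraries rests on low counts. With 1 mean per time in the fit, 34 members rose with the list's mean log2 level and 12 fell by edgeR's quasi-likelihood test, where 18.5% of all genes rose and 21% fell. Without the 3 libraries that stood apart, 14 members rose, and 12.2% of all genes did, so the members' share was then near that of all genes. Scaled by the library total alone, 18 members rose and 17 fell, and over all genes 3143 (12.2%) rose and 9298 fell in place of 4777 and 5399. With limma-trend, which uses the same scaling, 20 rose and 18 fell, beside 12.6% and 37.4% of all genes. Other markers differed between the same libraries. Replicate 1 of 10.5 h, of dusk and of 14 h, each the highest of its time in the pollen list, had the lowest sum of 8 cell division genes at its time, with 75.8, 119 and 112 CPM. At each other time the library highest in the pollen list was not the lowest in cell division. At 7 h, replicate 4 had the highest cell division sum, 363 CPM, with 33.4 CPM in the pollen list. Replicate 1 of 7 h had the lowest, 183 CPM, with 12.9 CPM in the pollen list. Replicate 3 of 21 h, the lowest of its time in the pollen list, had the highest cell division sum of all libraries, 613 CPM, and a tapetum sum of 47.0 CPM against 64.2 to 108 CPM in the other 3. Where other markers move with the pollen list, a slope on the list is also a slope on them, and their parts were not tested. The median slope was 0.08 log2 units per log2 unit of the list, beside -0.01 over all genes.

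OS02G0106100 had the steepest slope, 0.57 ± 0.0805 (SE), with an adjusted p of 2.92e-06. It was the member found in the 19 gene lists, written down as a vacuolar invertase, an enzyme that splits sucrose in the vacuole, with a pairing that the table did not check. Its 21 h libraries had 1839, 2192, 690.0 and 984 CPM, and replicate 3, the library of least pollen list signal at that time, was the lowest. At dawn it had 1055, 1751, 1216 and 583 CPM, with the low value again in the library of least pollen list signal. OS03G0109800 and OS02G0685200 had slopes of 0.53 ± 0.0681 (SE) and 0.32 ± 0.0674 (SE), at adjusted p of 6.51e-07 and 0.000484. The steepest negative slopes were -0.35 ± 0.0751 (SE) in OS08G0489300, -0.26 ± 0.0360 (SE) in OS03G0192700 and -0.23 ± 0.0367 (SE) in OS03G0178400, at adjusted p of 0.000525, 1.91e-06 and 1.48e-05. OS08G0489300 had 131, 151, 267 and 179 CPM at 21 h, with replicate 3 the highest. These 6 kept their calls in all 39 fits, including those without the libraries that stood apart.

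**Figure D5:**
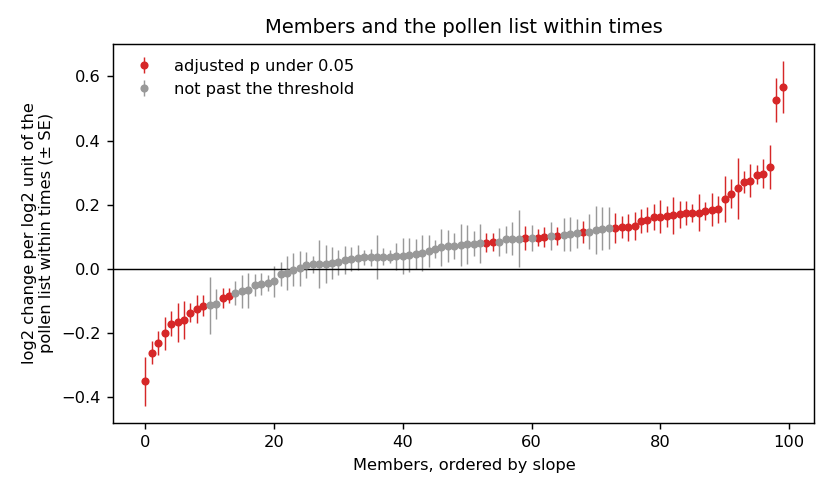
Slope of each of the 100 members on the mean log2 level of the pollen list within times, with its standard error (vertical axis), ordered by slope (horizontal axis); red points passed the test and grey points did not. Slopes run from -0.35 to 0.57, with 34 rising and 12 falling.

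Within times, the members moved together about as loosely as other genes did. The median correlation of member pairs across the libraries, each centred on its time, was 0.14 over 4950 pairs, which share the same libraries, and 0.13 over all genes of at least 10 CPM. The median coefficient of variation of members was above that of all such genes at each time but 21 h. It was 25.0% against 17.1% at dusk, 21.1% against 14.0% at 7 h and 17.6% against 11.8% at 17.5 h, and at 21 h, where the rule itself asked for libraries clear of the lowest time, 21.2% against 21.5%.

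Of the genes in 230 pairs of symbol and identifier in 19 lists, which cover the clock, flowering, light harvesting, starch, sugars, nitrogen, hormones, stress and organ identity among others, OS02G0106100 alone is a member. Of the other list genes, 7 met the conditions at a lower rank, and all are named here. Over all 14622 genes of at least 10 CPM, 100 are members and 522 met the conditions at a lower rank. With such shares few list genes would be found in any case, so these counts are not read as a result about the lists. OS05G0580000, written down as a starch synthesis gene in a pair that was not checked, stood at rank 105 with 856 ± 402 CPM at 21 h. It was followed by AMT1;1 (OS04G0509600), an ammonium transporter, at rank 115 with 62.1 ± 7.79 CPM at 21 h, and SWEET13 (OS12G0476200), a sugar exporter, at rank 153 with 87.1 ± 15.0 CPM. MADS14 (OS03G0752800), a MADS-box factor of the flowering transition, stood at rank 323 with 73.1 ± 2.11 CPM, and the evening-complex gene ELF3-1 (OS06G0142600) at rank 459 with 58.3 ± 10.6 CPM. CESA3 (OS07G0424400), a cellulose synthase, and GID2 (OS02G0580300), an F-box protein of gibberellin signalling, stood at ranks 519 and 555 with 229 ± 29.3 and 194 ± 27.2 CPM. None of the 14 core clock genes is a member, which the small share of all genes makes likely for so short a list. LHY (OS08G0157600), picked out after its values were seen, had 90.4 ± 32.0 CPM at 17.5 h, 3269 ± 434 CPM at 21 h and 3652 ± 899 CPM at dawn, with its highest mean at dawn.

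The members were spread over all 12 chromosomes, from 4 on chromosome 9 to 18 on chromosome 1. Chromosome 4 held 14 of them, 14.0% of the members and 8.58% of the genes of at least 10 CPM, and chromosome 2 held 8, against 12.4% of such genes. Identifiers run in order along a chromosome, and 3 pairs of members lay within 10 identifiers of each other. OS04G0578200 and OS04G0578400 have 2 identifiers between them, with a correlation of 0.89 over the 8 time means. OS12G0189300 and OS12G0190000 have 4 between them (0.97), and OS04G0583200 and OS04G0583900 have 7 (0.80). The correlations are descriptions of genes chosen for a shared highest time. Between these pairs lay 1, 2 and 2 identifiers of at least 10 CPM, in the order above, and none was highest at 21 h. Over all genes of that level, 940 of 14622 were, so none among so few is not read as a result. OS12G0641300 is a member that stands next to OS12G0641400, a gene left out by the rule, and went from 11.1 ± 1.79 CPM at dusk to 54.4 ± 12.3 CPM at 21 h. Reads of overlapping or near-identical genes can be split in counting, and no source used here states the strand setting of the counting.

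The same rule applied to other times sets the module beside its neighbours in the day. Dawn had 1741 genes with their highest mean, of which 1226 cleared their lowest time without overlap, and 17.5 h had 4135 and 3169, against 940 and 624 at 21 h before the 2 genes were left out. These counts hold for CPM by library total, since 1174 genes in place of 622 met the 21 h conditions with TMM-scaled CPM. The 100 genes of widest range at dawn had a median range of 3.12, and at 17.5 h of 1.98, against 2.49 at 21 h. The dawn list stood at a median of 83.8% of its peak a time earlier, at 21 h, and 60.1% a time later. The 21 h members stood at 43.7% a time earlier and 84.4% a time later. In both lists the day is read as a cycle, with dawn, the start of the series, placed after 21 h. The list of 17.5 h stood at 58.9% and 53.3% of its peak. These lists were chosen on the values described, and no test was made between them.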

How the data were processed

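Per the labels' protocols, panicle tissue was ground and freeze-dried, RNA was extracted with a DNase step, poly(A) RNA was selected on beads, and the library kit marked strand. The tools were HTSeq (version 0.6.0) and TopHat2 (version 2), on build IRGSP-1.0, per the submitters' processing notes. That build is of a japonica rice and the plants were indica, so reads of diverged genes can be missed. No source used here states the annotation release or the strand setting used in counting. The authors deposited whole-number counts per gene, and the same counts as CPM. Each deposited CPM value matched the count over its library's total, without further scaling.

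The members and the gene lists were chosen with earlier results of these data known. Levels in the text are the deposited CPM as mean ± SD of 4 libraries. The test on counts was the quasi-likelihood test of edgeR 4.0.16, run in R 4.3.3 on the 25766 genes that pass filterByExpr, with TMM factors, 1 mean per time over all 32 libraries, and Benjamini-Hochberg adjustment over all genes at 0.05. Standard errors were computed back from the log2 difference and its F value. A contrast was read for members whose lowest time is neither of its times. The pollen slope adds the mean log2 CPM (prior count 2) of the pollen list, centred within times. Alternatives were other size factors, none, DESeq2 1.42.0, limma-trend 3.58.1, no filter on low counts, a replicate block, each library left out in turn and, for the rule, TMM-scaled CPM, other minimum levels and other offsets. A further one, leaving out the 3 libraries that correlated least with their own time, was chosen after seeing the data.

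Genes were named by rule: the 12 of highest rank, every member in a list, the 3 largest called values each way per contrast and for the slope, and the 3 members and 3 other genes at the end of the ranking. Others named are list genes that met the conditions at a lower rank, pairs of neighbours, or genes said to be named for their lowest time or values. Of 230 pairs of symbol and identifier in the lists, 146 stood in the reference table (assembly ASM3414082v1) on the chromosome and in the order of the identifier, 4 stood elsewhere and 80 were not in it. Promoter motifs were not analysed here. Precision is limited by 4 libraries a time and by totals of 10.8 to 43.9 M counts. Replicates of a time differed by more than counting noise, so each was kept as a library of its own. This does not tell whether they stem from different plants or from separate preparations.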

Additional observations from a re-analysis of the deposited data

Results flagged for a closer look

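Each of the 18 named members and the members' median level was checked at all 8 times, and in 9 of 152 groups of 4 libraries a single library lay far from the other 3, by a rule that chance meets in about 1 of 20 groups. At dusk, 3 of these held replicate 1 as the high library. OS04G0444800 had 48.9 CPM in it and 22.3 to 26.1 CPM in the other dusk libraries. OS02G0106100 had 404 CPM in it and 70.8 to 88.0 CPM in the others. The dusk mean of OS02G0106100 was the lowest of its 8 time means even with that high library. OS03G0109800 had 11.9 CPM in it and 2.09 to 2.73 CPM in the others. At 14 h, replicate 4 was the low library in 2 members, with 69.5 against 367 to 414 CPM in OS02G0106100 and 1.95 against 11.6 to 12.6 CPM in OS03G0109800. The summed level of the pollen list was 66.1 CPM in dusk replicate 1 against 6.14 to 9.72 CPM in the other 3, and 6.04 CPM in 14 h replicate 4 against 24.6 to 61.7 CPM. Its part in these values was not tested.

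OS02G0685200 had 80.6 CPM in dawn replicate 4, one of the libraries that stood apart, against 123 to 130.2 CPM in the other dawn libraries. At 7 h it had 66.0 CPM in replicate 1 and 19.4 to 25.5 CPM in the others. OS12G0189300 had 26.1 CPM in 17.5 h replicate 1 and 5.91 to 8.06 CPM in the others. Its log2 difference between dawn and 17.5 h, reported as 4.45, was 5.22 without that library. OS04G0444800 had 629 CPM in 3.5 h replicate 1 and 442 to 466 CPM in the others.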

How the results depend on the processing

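The count of members higher at dawn than at 17.5 h (56 to 71), the count lower at 3.5 h than at dawn (28 to 41) and the count falling with the pollen list (8 to 18) stayed within 1.5 times of the reported value in all 39 settings, and no named value reversed. The number of members kept was 41 without the 3 libraries that stood apart and 40 to 99 when single libraries were left out. It was 92 with TMM-scaled CPM, 89 and 80 at minimum means of 5 and 20 CPM, and 99 and 91 at offsets of 0.5 and 5 CPM. The members higher at 14 h than at dusk numbered 5 with no factors beyond the library total, 7 with DESeq2, 6 with limma-trend and 6 without the 3 libraries, where 0.0699, 0.23, 0.0776 and 0.119% of all genes were higher in place of 0.0349%, and 1 to 5 when single libraries were left out. Those higher at 17.5 h than at 14 h numbered 19 to 34 when single libraries were left out. Those rising with the pollen list numbered 18 with no factors, 20 with limma-trend, 14 without the 3 libraries and 23 to 41 when single libraries were left out, where 12.2, 12.6 and 12.2% of all genes rose in the first 3 of these settings and 18.5% in the reported one. Of 18 named values, 15 kept their call throughout, and the other 3 are named in the text with the libraries concerned; the cause of these changes was not tested.

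Replicate numbers are shared between times in the labels. Deviations of same-numbered libraries had a mean correlation of 0.066 (lowest -0.89), beside -0.016 for libraries of other numbers. Of 32 libraries, 12 were closest to their own number, and whether same-numbered libraries are linked was not tested. With the replicate number as a block, 70 members were higher at dawn than at 17.5 h, 32 at 17.5 h than at 14 h and 3 at 14 h than at dusk. Of all genes, 8.88, 1.09 and 0.0582% were then higher in these contrasts, in that order. In the same fit 33 members were lower at 3.5 h than at dawn, beside 6.67% of all genes. With the pollen list 31 members rose and 10 fell, beside 16.9% and 18.7% of all genes. In any of the 4 contrasts, 0 members moved against these directions. Levels under about 1 CPM, as in OS01G0700100 at dusk, rest on few counts and carry counting error beyond the spread shown.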
